A study of Mus musculus with 16 samples.

Results

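Rtp4, Ifit1, Xaf1, Oas3, Ifitm3 and Pyhin1 are 6 genes that interferon induces, and they were followed through 16 RNA libraries of mouse CD4 T cells that had or had not lost Sin3A, a scaffold protein on which histone deacetylases assemble to repress genes. They were chosen by symbol from the 8552 genes named in the deposited table, which has 17850 rows in all, and each of the 6 symbols was joined to a row. All cells came from 2-month-old C57BL/6 J mice with 1 genotype, Rosa26-CreERT2 +/- Sin3AF/F, in which tamoxifen activates a ubiquitously expressed Cre that removes the floxed part of Sin3a. The groups held 4 libraries each. Th17 deficient cells had 6 days of IL-7 and 3 additional days of Th17 polarization, with tamoxifen. Their source labels do not limit tamoxifen to the IL-7 days. Th17 sufficient cells had the same days without tamoxifen. IL-7 deficient cells had 6 days of IL-7 with tamoxifen, and IL-7 sufficient cells had 6 days of IL-7 without tamoxifen. Libraries go by the authors' names, in which BASAL stands for IL-7 cells, D3 for Th17 cells and TAM for tamoxifen, followed by 1 of 4 recurring numbers. BASAL959 and the other 3 libraries of its number were from female animals and the rest from male animals. Cells given tamoxifen without floxed alleles were not analysed here, so loss of Sin3A and exposure to tamoxifen cannot be told apart. The labels do not say that a number is a mouse, so the p-values measure only the spread between these libraries, which may be technical.

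Interferons are secreted proteins that bind receptors on the cell surface and activate kinases of the JAK family. Type I interferon acts on induced genes through a DNA element named ISRE, and interferon gamma through one named GAS. The induced proteins restrict viruses at several steps. Oas3 makes 2′-5′-linked oligoadenylates, second messengers of the antiviral response, and Ifit1 binds viral RNA that lacks the cap methylation of the host and blocks its translation. Ifitm3 is a membrane protein that hinders the fusion of viruses with endosomes. Pyhin1 belongs to the interferon-inducible HIN-200 proteins, which bind DNA. Rtp4 is a receptor transporter protein that in mice restrains flaviviruses, and Xaf1 is known as an antagonist of the apoptosis inhibitor XIAP.

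Promoters of RefSeq on GRCm38.p6 were at hand for 4 of the 6 genes, from 250 bases before to 50 bases after the start, and are printed because they differ in their matches to the ISRE. Capitals mark matches on either strand to the ISRE core GAAANNGAAA, which 3.44% of 32851 promoters of this length hold. The windows are chr19:34640639-34640938 on the + strand for Ifit1, chr11:72301379-72301678 on the + strand for Xaf1, chr5:120777610-120777909 on the - strand for Oas3 and chr7:141010695-141010994 on the - strand for Ifitm3.
Ifit1: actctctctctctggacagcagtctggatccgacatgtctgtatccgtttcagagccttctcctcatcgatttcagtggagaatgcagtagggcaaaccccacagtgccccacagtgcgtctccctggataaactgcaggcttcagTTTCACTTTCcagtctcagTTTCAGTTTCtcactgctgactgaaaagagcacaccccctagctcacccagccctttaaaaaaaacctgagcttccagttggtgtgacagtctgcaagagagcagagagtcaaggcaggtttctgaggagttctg
Xaf1: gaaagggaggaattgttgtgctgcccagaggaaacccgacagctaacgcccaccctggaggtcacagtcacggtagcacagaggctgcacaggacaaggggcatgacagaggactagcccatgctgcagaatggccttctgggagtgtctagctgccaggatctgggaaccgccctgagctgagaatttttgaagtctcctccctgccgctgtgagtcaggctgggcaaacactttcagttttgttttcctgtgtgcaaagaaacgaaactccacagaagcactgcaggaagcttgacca
Oas3: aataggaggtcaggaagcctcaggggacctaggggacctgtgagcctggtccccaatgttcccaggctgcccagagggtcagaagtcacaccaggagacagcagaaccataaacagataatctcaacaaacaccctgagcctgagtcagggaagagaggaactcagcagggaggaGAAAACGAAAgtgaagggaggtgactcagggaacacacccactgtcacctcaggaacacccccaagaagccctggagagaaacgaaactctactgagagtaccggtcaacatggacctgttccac
Ifitm3: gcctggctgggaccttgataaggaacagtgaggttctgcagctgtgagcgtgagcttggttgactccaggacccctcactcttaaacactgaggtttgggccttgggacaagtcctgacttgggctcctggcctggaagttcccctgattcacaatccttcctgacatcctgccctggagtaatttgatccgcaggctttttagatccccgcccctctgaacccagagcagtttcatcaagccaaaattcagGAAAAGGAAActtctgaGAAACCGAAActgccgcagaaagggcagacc
Ifit1 held 2 matches, which begin 104 and 85 bases before the start on the opposite strand, and Oas3 held 1, at 75 bases before the start on its own strand. Ifitm3 held 2, which begin 3 and 20 bases after the start, and between them a match to the GAS element TTCNNNGAA, which overlaps the second of them and which 8.3% of promoters hold. The Xaf1 window held no match to either. Rtp4 and Pyhin1 had no entry. These matches describe letters in a window and not sites in use. Ifit1, Ifitm3 and Pyhin1 have similar neighbouring relatives, and how the authors counted reads shared between relatives is not given in the sources used here.

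The deposited values had lost their decimal points, so reads were restored from the digits, to totals of 19749846 to 28608533 reads per library. Levels below are normalized counts, which are reads divided by the authors' size factor of a library, so that 1 read is worth 0.779 to 1.13. They are not scaled by gene length, so levels are compared between groups and not between genes. The IL-7 sufficient library BASAL960 stood farthest from its group, at a root mean square log2 distance of 0.458, against 0.234 to 0.43 for the other 15 libraries, and each result that uses it is also given without it. Summed levels of 6 CD4 T cell marker genes were 33337 to 36630 in Th17 deficient, 52735 to 57702 in Th17 sufficient, 68015 to 73808 in IL-7 deficient and 69599 to 81422 in IL-7 sufficient libraries. These markers and Sin3a were joined by name, and the authors name only genes with a negative fold change in deficient Th17 cells. Their direction between the Th17 groups was thus fixed by the naming. Sin3a itself averaged 1774 ± 49.8 in Th17 deficient and 2106 ± 181 in Th17 sufficient libraries (log2 difference -0.24, limma adjusted p = 0.0105), and 2211 ± 98.2 in IL-7 deficient and 2524 ± 249 in IL-7 sufficient libraries (log2 difference -0.19, limma adjusted p = 0.184; SD, n = 4 each). Which exons are floxed is not stated in the labels, and reads over the whole gene may include transcripts that keep its other exons. In bulk RNA, fewer cells of a type and less RNA per cell cannot be told apart.

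The values of each gene follow in the order of the recurring number, which for IL-7 sufficient cells is BASAL955, BASAL957, BASAL959 and BASAL960. Oas3, the oligoadenylate synthetase gene, had 72.9, 117, 60.4 and 85.3 in Th17 deficient libraries, against 402, 408, 313 and 512 in Th17 sufficient libraries. It had 177, 212, 189 and 279 in IL-7 deficient libraries, against 295, 432, 276 and 1942 in IL-7 sufficient libraries. The Th17 groups were fully apart, the IL-7 groups overlapped between 276 and 279, and 1942 in BASAL960 was the highest of all 16 values.

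Ifit1, the viral RNA binder, had 4.39, 13.3, 3.83 and 6.89 in Th17 deficient libraries, against 12.8, 18.4, 11.3 and 31.6 in Th17 sufficient libraries. It had 143, 125, 152 and 146 in IL-7 deficient libraries, against 150, 217, 138 and 2138 in IL-7 sufficient libraries. Both pairs of groups overlapped, and every IL-7 library was above every Th17 library. Agreement between the libraries alone would have placed Ifit1 at 1496, 2173 and 1382 in BASAL955, BASAL957 and BASAL959, which is more than the authors' mean for this gene allows, so the lower power of 10 was used.

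Ifitm3, the fusion inhibitor, had 49.2, 68.3, 61.3 and 162 in Th17 deficient libraries, against 257, 550, 410 and 515 in Th17 sufficient libraries. It had 26.6, 25.5, 18.3 and 55.3 in IL-7 deficient libraries, against 65.6, 137, 81.8 and 359 in IL-7 sufficient libraries. Sufficient libraries lay above deficient ones without overlap at both stages. The powers of 10 of Ifitm3 in IL-7 libraries had a posterior of 74.1%, against at least 99.95% for the other 5 genes. The next choice would set the IL-7 deficient library BASALTAM959 to 1.83. This posterior does not cover the Th17 libraries, whose powers were held as the join had set them.

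Pyhin1, the HIN-200 gene, had 11.4, 7.50, 5.75 and 12.1 in Th17 deficient libraries, against 22.7, 19.4, 5.22 and 39.5 in Th17 sufficient libraries. It had 3888, 3763, 4089 and 3548 in IL-7 deficient libraries, against 4572, 4794, 4496 and 7914 in IL-7 sufficient libraries. The IL-7 groups were apart, the Th17 groups overlapped through the sufficient library D3959, and every IL-7 library was far above every Th17 library. Agreement between the libraries alone would have placed Pyhin1 at 52.2 in D3959, where the Th17 groups would be apart. The sum over the libraries would then be 37234, narrowly above the 37233 that the authors' mean allows. The join used the next-best power of that value, so the overlap rests on this choice.

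Xaf1, the XIAP antagonist, had 11.4, 14.2, 0 and 5.17 in Th17 deficient libraries, against 21.7, 43.0, 20.9 and 60.9 in Th17 sufficient libraries. It had 419, 502, 458 and 532 in IL-7 deficient libraries, against 526, 911, 591 and 3211 in IL-7 sufficient libraries. The Th17 groups were apart, and the IL-7 groups overlapped between 526 and 532. The library at 0 reads, D3TAM959, allows up to 3 reads, or 2.87 normalized counts, a limit that covers counting error only.

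Rtp4, the receptor transporter gene, had 0.878, 1.67, 0 and 4.31 in Th17 deficient libraries, against 1.98, 3.07, 0 and 7.90 in Th17 sufficient libraries. These Th17 values rest on 0 to 5 reads in deficient and 0 to 7 reads in sufficient libraries. It had 194, 220, 227 and 316 in IL-7 deficient libraries, against 309, 835, 327 and 4760 in IL-7 sufficient libraries. The IL-7 groups overlapped between 309 and 316, and BASAL960 was again the highest.

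**Figure D1:**
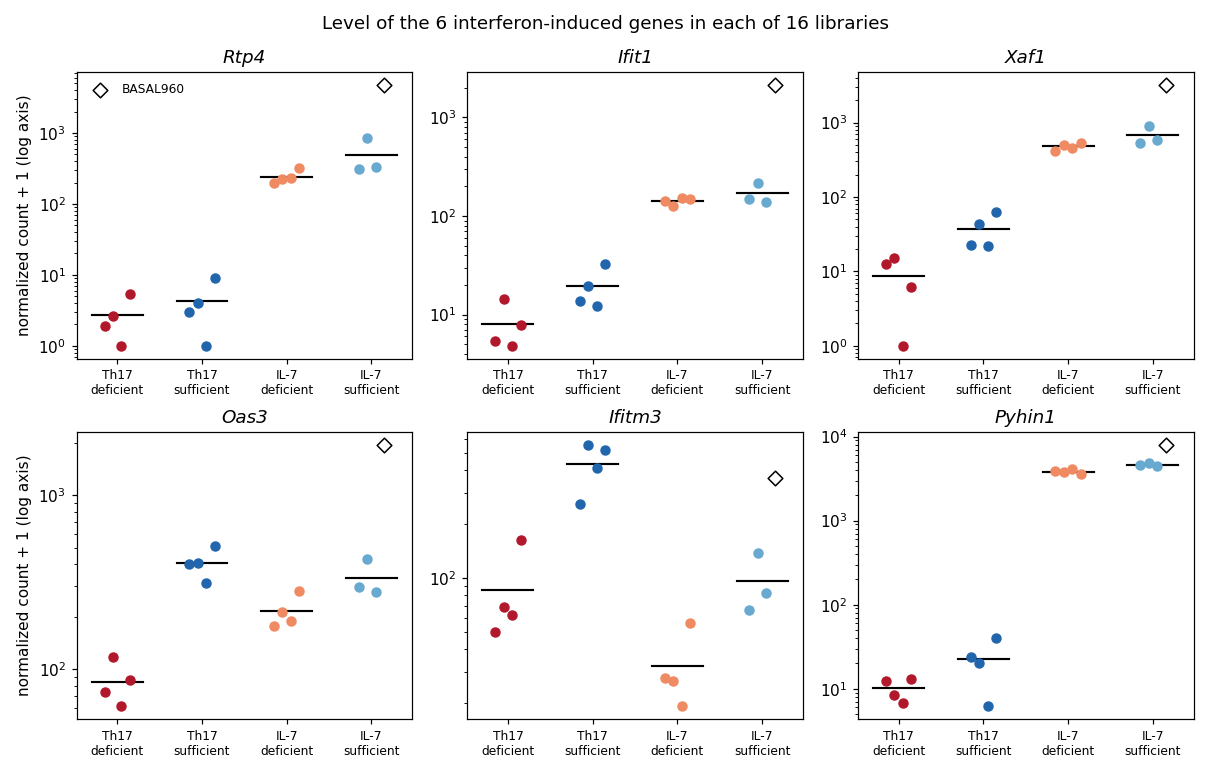
Normalized counts plus 1 (log axis) of the 6 genes in each of 16 libraries, by group, with the group mean as a line and BASAL960 as an open diamond that is left out of the mean. Oas3 and Ifitm3 stood at 257 to 550 in Th17 sufficient libraries, whereas Rtp4, Ifit1, Xaf1 and Pyhin1 were at most 60.9 in every Th17 library.

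By group mean, Rtp4, Ifit1, Xaf1 and Pyhin1 shared 1 order of levels, with Th17 deficient below Th17 sufficient, then IL-7 deficient, then IL-7 sufficient, with and without BASAL960. In this order the step between the Th17 groups was fixed by the naming. Neighbours in that order overlapped at both ends for Rtp4 and Ifit1, only between the IL-7 groups for Xaf1 and only between the Th17 groups for Pyhin1. The overlap of Pyhin1 rests on the lower power for the Th17 sufficient library D3959. Oas3 averaged 83.8 ± 24.2 in Th17 deficient, 409 ± 81.5 in Th17 sufficient, 214 ± 45.5 in IL-7 deficient and 736 ± 807 in IL-7 sufficient libraries (SD, n = 4 each). Without BASAL960 the IL-7 sufficient mean of Oas3 was 334 ± 85.0 (SD, n = 3), below the Th17 sufficient mean. The 2 sufficient groups of Oas3 overlapped in either case, while IL-7 deficient and Th17 deficient libraries did not. Ifitm3 averaged 85.2 ± 51.8 in Th17 deficient, 433 ± 132 in Th17 sufficient, 31.5 ± 16.3 in IL-7 deficient and 161 ± 136 in IL-7 sufficient libraries (SD, n = 4 each). Ordered by their means, each of these groups overlapped the next, and without BASAL960 the Th17 sufficient group was apart from the IL-7 sufficient group. Over all 16 libraries only Ifitm3 of the 6 had its highest mean in Th17 cells, and without BASAL960 Oas3 did too.

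The first comparison asked what loss of Sin3A did to these genes in Th17 cells. Oas3, Ifitm3 and Xaf1 fell about 5-fold in deficient Th17 cells, Pyhin1 fell less, and Ifit1 and Rtp4 did not pass the test. The direction was fixed by the choice of genes, because the authors name only genes with a negative fold change here and the names were joined through that fold change, so it is a description. In limma on log2(normalized count + 1) over 12748 rows, 4 of the 6 genes passed an adjusted p of 0.05, and 28.2% of all rows and 56.2% of named genes were called lower. For 3 of the 6, Oas3, Ifitm3 and Xaf1, the groups did not overlap, as for 22.9% of rows in that direction. That share is over all rows and was not counted among named genes, which were chosen as lower here.

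Oas3 was 4.90-fold lower in Th17 deficient than in Th17 sufficient cells (log2 difference -2.29 ± 0.42 SE, limma adjusted p = 1.58e-04). Ifitm3 was 5.40-fold lower (-2.43 ± 0.46, limma adjusted p = 2.06e-04). Xaf1 was 5.84-fold lower (-2.55 ± 0.67, limma adjusted p = 0.00332), a value that rests in part on the deficient library D3TAM959 at 0 reads, without which it was -1.70 (limma adjusted p = 0.00890). The fall of Pyhin1 was 1.90-fold (-0.93 ± 0.38, limma adjusted p = 0.0460), and its adjusted p was under 0.05 in 4 of the 16 fits that each left out 1 library and reached 0.196 without the sufficient library D3960. This fall uses the lower power for the sufficient library D3959, and the fall at the higher power was not tested. With limma voom on the reads neither Xaf1 (-2.77, adjusted p = 0.165) nor Pyhin1 (-0.90, adjusted p = 0.294) passed. Ifit1 differed by -1.30 ± 0.62 on the log2 scale (limma adjusted p = 0.0830), and Rtp4 by -0.50 ± 0.74 (limma adjusted p = 0.578, 95% interval -2.06 to 1.05). BASAL960 enters this comparison only through the shared estimate of the spread. Without it 5 of the 6 genes passed, against 29.7% of rows and 59.3% of named genes called lower. Ifit1 was then the added gene (limma adjusted p = 0.00244), as it also was without the deficient library D3TAM957 (-1.62, limma adjusted p = 0.0462). The authors' deposited table gives log2 fold changes of -2.29 for Oas3, -2.35 for Ifitm3, -2.24 for Xaf1, -1.37 for Ifit1, -1.23 for Pyhin1 and -0.865 for Rtp4. Adjusted p-values in the authors' deposited table were 2.37e-05, 2.52e-05, 0.00220, 0.145, 0.0789 and 0.527 in the same order. Each gene's row was joined by its match to the authors' fold change, so these values are no separate check of the differences above. Marker sums moved with the groups too, in a direction fixed by the naming, since only markers that the authors name could be joined. Those of 5 Th17 genes were 11137 to 12877 in Th17 deficient and 27597 to 52098 in Th17 sufficient libraries, and those of the 5 joined monocyte, macrophage and dendritic cell genes were 615 to 1142 in Th17 deficient and 2322 to 4157 in Th17 sufficient libraries. Of the monocyte, macrophage and dendritic cell genes, Cd74, H2-Ab1 and Cd68 were lower in every Th17 deficient library than in every Th17 sufficient one, whereas Fcgr3 and H2-Aa overlapped. The sum of both CD8 T cell markers was 113 to 196 in Th17 deficient and 231 to 519 in Th17 sufficient libraries. Their part in the levels of the 6 genes was not tested.

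In IL-7 cells the question was whether these genes differed before polarization. Ifitm3 fell 4.31-fold in deficient IL-7 cells, and the other 5 genes were lower on average but did not pass the test. Of the 6 genes, 1 was called lower, against 2.09% of all rows and 3.28% of named genes. The groups did not overlap for Ifitm3 and Pyhin1, as for 6.71% of rows in that direction. The sum of 4 B cell markers was also apart, at 132 to 240 in IL-7 deficient and 318.5 to 1083 in IL-7 sufficient libraries (318.5 to 677 without BASAL960). The sum was carried mostly by Blk. Cd79a was narrowly apart (56.3 to 80 against 80.2 to 145), while Cd79b and Ms4a1 overlapped. The part of the B cell markers in the levels of the 6 genes was not tested.

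Ifitm3 differed by -2.11 ± 0.46 on the log2 scale between IL-7 deficient and IL-7 sufficient cells (limma adjusted p = 0.0141). Its adjusted p was 0.0512 without the deficient library BASALTAM957 and 0.0520 without BASALTAM959. With the next choice of its powers of 10, Ifitm3 differed by -2.80 (limma adjusted p = 0.0264). Rtp4 differed by -1.75 ± 0.74 (limma adjusted p = 0.202), Ifit1 by -1.15 ± 0.62 (0.353) and Xaf1 by -1.04 ± 0.67 (0.452). Oas3 differed by -1.27 ± 0.42 (limma adjusted p = 0.0995), and without the sufficient library BASAL959 by -1.57 (limma adjusted p = 0.0478). For Pyhin1 the groups were apart, yet the difference was -0.47 ± 0.38 (limma adjusted p = 0.573, 95% interval -1.28 to 0.34).

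The IL-7 differences were smaller without BASAL960 for all 6 genes. Without BASAL960, Ifit1 moved to -0.22 ± 0.36 (limma adjusted p = 0.841, 95% interval -0.97 to 0.53), Xaf1 to -0.46 (0.803), Oas3 to -0.63 (0.144), Rtp4 to -0.90 (0.524) and Pyhin1 to -0.27 (0.820). Ifitm3 stayed past the threshold at -1.61 ± 0.40 (limma adjusted p = 0.0321), when 1.39% of rows and 2.15% of named genes were called lower. Libraries of 1 number deviated together in this comparison, so the fit with the number as a block is given beside the first. That fit gives a number the same effect in every group, including the Th17 groups, where the numbers did not count as pairs. With the block Rtp4 (limma adjusted p = 0.0268), Oas3 (0.0316) and Ifitm3 (5.3e-04) were called lower at the same differences, 3 of the 6 genes, against 3.22% of rows. With the block and without BASAL960, Oas3 (-0.72, limma adjusted p = 0.0174) and Ifitm3 (-1.87, limma adjusted p = 0.00109) were called, against 1.84% of rows, and Rtp4 was not (-1.24, limma adjusted p = 0.0993).

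**Figure D2:**
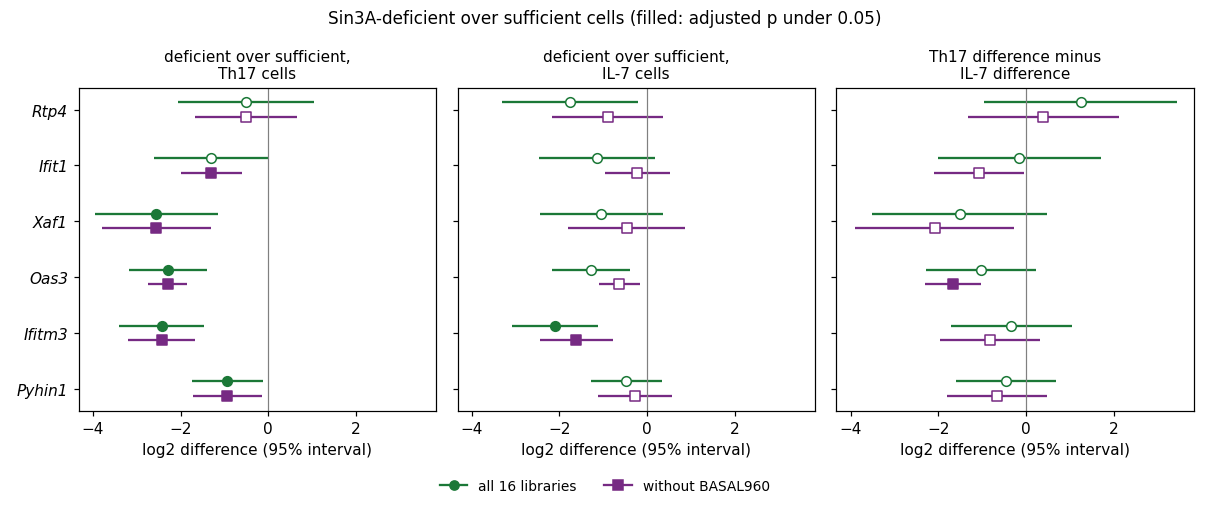
Log2 difference with its 95% interval for each gene, for deficient over sufficient Th17 cells, deficient over sufficient IL-7 cells, and the Th17 difference minus the IL-7 difference, from all 16 libraries (circles) and without BASAL960 (squares), filled where the adjusted p was under 0.05. Ifitm3 was filled at both stages, and in the IL-7 panel every square lay closer to 0 than its circle.

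Whether the effect of Sin3A loss differed between the stages was tested directly. With all libraries the difference of the 2 log2 differences was 1.25 for Rtp4, -0.15 for Ifit1, -1.51 for Xaf1, -1.02 for Oas3, -0.33 for Ifitm3 and -0.46 for Pyhin1. Of the 6 genes 0 passed in limma, 0 had an unadjusted p under 0.05 and limma voom on the reads also called 0, whereas 40.1% of rows were called in either direction. The standard errors of 0.54 to 1.04 on the log2 scale set this precision. Without BASAL960 the fall of Oas3 was larger in Th17 than in IL-7 cells (-1.66 ± 0.30, limma adjusted p = 3.49e-04), 1 gene of the 6 against 18.8% of rows called in that direction, and 3 had an unadjusted p under 0.05. Named genes were chosen by the authors as lower in deficient Th17 cells, which enters this difference, and 37.0% of them were called lower here with all libraries and 37.6% without BASAL960. Pyhin1 passed when the Th17 sufficient library D3959 was left out (-0.99, limma adjusted p = 0.0322).

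The 6 genes went different ways between Th17 and IL-7 cells. In Th17 cells Pyhin1, Rtp4, Xaf1 and Ifit1 were far lower than in IL-7 cells, with and without Sin3A. Ifitm3 was higher in Th17 cells in both, and Oas3 was lower in deficient Th17 cells, while in sufficient cells it did not pass the test. The 2 polarization comparisons use different libraries.

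In deficient cells all 6 genes passed, 5 lower in Th17 cells and 1 higher, against 41.5% of rows called lower and 37.6% called higher. Among named genes these shares were 53.8% and 26.2%, since the naming used the same Th17 deficient libraries. The groups were apart for the 5 that fell, as for 39.5% of rows in that direction, and overlapped for Ifitm3, where 36.1% of rows were apart upward. Shares of rows apart were not counted among named genes. Pyhin1 was 389-fold lower in Th17 than in IL-7 deficient cells (log2 difference -8.60 ± 0.38, limma adjusted p = 1.12e-12). Rtp4 was 104-fold lower (-6.70 ± 0.74, limma adjusted p = 1.44e-07), Xaf1 81.6-fold lower (-6.35 ± 0.67, 7.97e-08) and Ifit1 19.3-fold lower (-4.27 ± 0.62, 5.19e-06). The value of Xaf1 was -5.50 without D3TAM959. Oas3 fell 2.57-fold (-1.36 ± 0.42, limma adjusted p = 0.00692). Ifitm3 rose 2.58-fold (1.37 ± 0.46, limma adjusted p = 0.0118), a call that ended without the Th17 deficient library D3TAM960 (1.01, limma adjusted p = 0.0564). With limma voom on the reads neither Oas3 (adjusted p = 0.0661) nor Ifitm3 (adjusted p = 0.0546) passed. With the next choice of powers of 10 Oas3 did not pass (limma adjusted p = 0.163). For Oas3 that choice, at a posterior of 0, changes only BASAL960, which is outside this comparison, to more than the authors' mean allows.

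In sufficient cells 5 of the 6 genes passed, 4 lower and 1 higher, against 41.5% and 35.4% of rows (38.2% and 38.5% of named genes), and without BASAL960 the same numbers of genes stood against 41.6% and 35.5%. The groups were apart for the 4 that fell, as for 36.5% of rows, while those of Ifitm3 overlapped, where 30.8% of rows were apart upward. Pyhin1 was 283-fold lower in Th17 than in IL-7 sufficient cells (-8.14 ± 0.38, limma adjusted p = 3.11e-12) and 247-fold lower without BASAL960. Rtp4 was 248-fold lower (-7.95 ± 0.74, limma adjusted p = 1.78e-08) and 136-fold lower without BASAL960. Xaf1 was 28.7-fold lower (-4.84 ± 0.67, limma adjusted p = 3e-06) and Ifit1 17.4-fold lower (-4.12 ± 0.62, 8.84e-06), with 19.3-fold and 9.16-fold without BASAL960. Fold changes of Rtp4 understate the change, because its Th17 levels are close to the added 1. Ifitm3 was 3.24-fold higher (1.69 ± 0.46, limma adjusted p = 0.00285) and 4.56-fold higher without BASAL960, when its groups were apart. Oas3 differed by -0.34 ± 0.42 (limma adjusted p = 0.469, 95% interval -1.23 to 0.55), and its sign turned to 0.30 ± 0.22 without BASAL960 (limma adjusted p = 0.228, 95% interval -0.17 to 0.77).

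**Figure D3:**
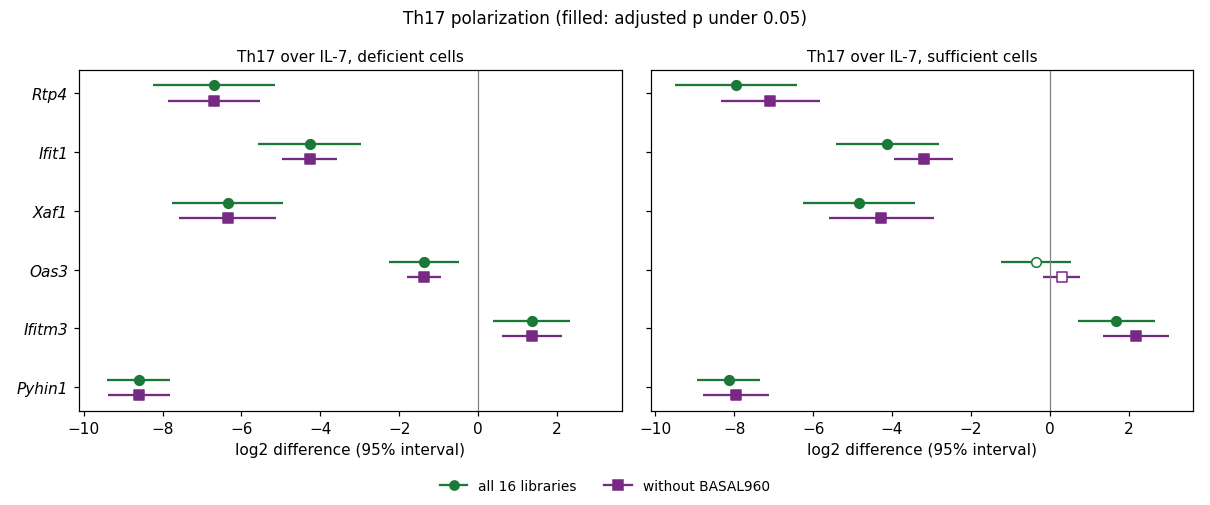
Log2 difference with its 95% interval for each gene between Th17 and IL-7 cells, in deficient cells and in sufficient cells, from all 16 libraries (circles) and without BASAL960 (squares), filled where the adjusted p was under 0.05. Pyhin1 lay near -8 in both panels, Ifitm3 lay above 0 in both, and Oas3 in sufficient cells spanned 0.

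BASAL960 carried more of all 6 transcripts than any other IL-7 sufficient library. Its level over the mean of the other 3 was 12.7 for Ifit1, 9.71 for Rtp4, 5.81 for Oas3, 4.75 for Xaf1, 3.79 for Ifitm3 and 1.71 for Pyhin1. The reads behind these levels were 2529 for Ifit1, 5631 for Rtp4, 2297 for Oas3, 3799 for Xaf1, 425 for Ifitm3 and 9362 for Pyhin1. None of these numbers ends in 0, so none can be 10 times smaller in whole reads, and 10 times larger would exceed what the authors' means allow. The ratio of Ifit1 rests on the lower power of 10 in the other 3 libraries, which the authors' mean set. Among the other 3 IL-7 sufficient libraries, BASAL957 was the highest for all 6 genes. In the Th17 sufficient group, D3960 was the highest for 5 of the 6, all but Ifitm3. In the IL-7 deficient group, BASALTAM960 was the highest for Rtp4, Xaf1, Oas3 and Ifitm3 and the lowest for Pyhin1. In the Th17 deficient group, D3TAM960 was the highest for Rtp4, Ifitm3 and Pyhin1.

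The same library was high for other interferon genes. Of 40 tested genes of the wider interferon list, BASAL960 was the highest of its 4 libraries for 34 (85%) and at least 2-fold above the mean of the other 3 for 17 (42.5%), with a median ratio of 1.89. Over all tested rows it was the highest for 36.4% and at least 2-fold above for 3.13%, with a median ratio of 0.988. Some markers of other cell types were high in it as well. The sum of 5 joined genes of 12 markers of monocytes, macrophages and dendritic cells was 3882 in BASAL960, against 458 to 1156 in the other 3 IL-7 sufficient libraries and 296 to 1277 in IL-7 deficient libraries. Of these genes only Cd74 (2894, against 41.3 to 625 in the other 3) and H2-Ab1 (750, against 54.9 to 189), both of MHC class II, were highest in BASAL960, while Cd68 was lowest there (92.1, against 99.7 to 129) and Fcgr3 and H2-Aa lay within the range of the other 3. The sum of 4 joined genes of 6 B cell markers was 1083 in BASAL960, against 318.5 to 677 in the other 3. The natural killer cell gene Nkg7, 1 of 5 markers, stood at 608 in BASAL960, against 200 to 350 in the other 3 and 148 to 428 in IL-7 deficient libraries. The sum of both CD8 T cell markers was lowest in BASAL960, at 430 against 471 to 638 in the other 3. The part of these cells in the levels of the 6 genes was not tested.

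**Figure D4:**
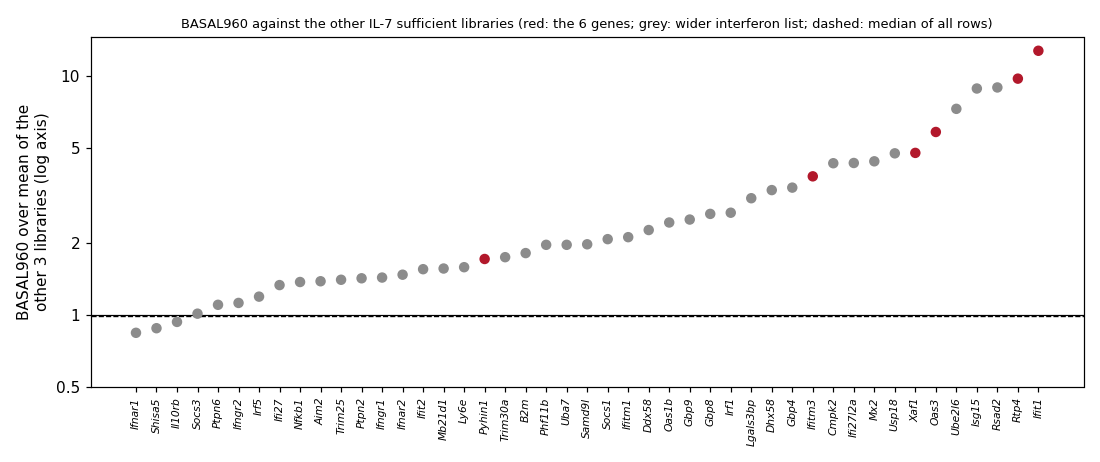
Level in BASAL960 over the mean of the other 3 IL-7 sufficient libraries (log axis), for the 6 genes in red and genes of the wider interferon list in grey, in rising order, with a dashed line at the median of all tested rows, 0.988. Ifit1 (12.7) and Rtp4 (9.71) were the highest of the genes shown.

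The 6 genes also varied together within groups. Over the 15 pairs, the correlation of the log2 levels across 16 libraries ran between -0.42 and 0.97 with a median of 0.68. For deviations from the group mean it ran between 0.28 and 0.96 with a median of 0.72, and without BASAL960 between 0.11 and 0.82 with a median of 0.59. These are descriptions, since the points share a library and its depth. Of 6038 other named genes, the closest to the mean profile of the 6 by log2 level were Mx2 (r = 0.984), an antiviral GTPase gene, H2-M3 (0.977), a nonclassical MHC class I gene, and Isg15 (0.974), a ubiquitin-like protein gene, followed by Gm19705 (0.966) and B2m (0.965), the light chain of MHC class I. Over the 15 libraries without BASAL960 they were Gm19705 (0.980), H2-T23 (0.977), Mx2 (0.974), Acsf2 (0.974) and Igsf23 (0.972). By deviation from the group mean they were Scfd1 (0.935), Cst7 (0.920), Epsti1 (0.918), AW112010 (0.918) and Mx2 (0.911), and without BASAL960 Epsti1 (0.923), Gm19705 (0.901), Trbj2-4 (0.882), Tmem87a (0.875) and Pglyrp1 (0.870).

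Around the 6 genes, a list of 135 other genes of the interferon pathway was followed, of which the authors name 63, 51 were joined and 40 were tested. No ligand was among the 40, which held 5 receptors, 3 signalling genes and factors, 5 inhibitors and 3 sensors, the rest being induced effectors. In deficient against sufficient Th17 cells 24 of the 40 (60%) fell and 0 rose, a direction fixed by the naming, against 56.2% of named genes called lower. Without BASAL960 30 of the 40 (75.0%) fell, against 59.3% of named genes. With all libraries the list had a median log2 difference of -0.56 against -0.39 over all named genes. The 24 held 4 of 5 receptors, 4 of 5 inhibitors and 2 of 3 sensors. The largest falls were in Phf11b (-2.90, limma adjusted p = 2.24e-05), Dhx58, a regulator of RNA sensing (-2.45, 3.83e-06), Isg15 (-2.12, 0.00243), Samd9l (-1.67, 1.03e-04), Ifitm1, a neighbour and relative of Ifitm3 (-1.66, 0.00343), and Mx2 (-1.47, 0.00630).

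In deficient against sufficient IL-7 cells 3 of the 40 (7.50%) fell and 0 rose, against 3.28% of named genes called lower, and the median was -0.47, against -0.04 over named genes. Among them were the GTPase gene Gbp4 (-1.19, limma adjusted p = 0.0409) and Ly6e (-0.63, 0.0248). Without BASAL960 2 passed (5%, against 2.15% of named genes), Gbp4 among them, and the median was -0.28, against -0.05 over named genes. The difference between stages passed for 8 of the 40 (20%), all with the larger fall in Th17 cells, below the 37.0% of named genes called in that direction. Without BASAL960 it passed for 13 (32.5%), against 37.6% of named genes. With all libraries its median was -0.10, against -0.36 over named genes. It was led by Phf11b (-2.43, limma adjusted p = 0.00514), Dhx58 (-1.83, 0.00387) and Samd9l (-1.31, 0.0187).

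Most of the wider list was lower in Th17 than in IL-7 cells. In deficient cells 28 of the 40 (70.0%) fell and 6 (15.0%) rose, against 53.8% and 26.2% of named genes, with a median log2 difference of -1.43 against -0.40 over named genes. In sufficient cells 29 (72.5%) fell and 6 (15.0%) rose, against 38.2% and 38.5% of named genes, with a median of -1.50 against -0.01 over named genes. Without BASAL960 27 (67.5%) fell, against 38.5% of named genes, with a median of -1.19. The largest falls included Samd9l, at -6.64 in deficient and -5.33 in sufficient cells, Cmpk2, a nucleotide kinase gene, at -5.52 and -5.87, Ifit2, a relative of Ifit1, at -4.26 and -3.38, and Rsad2, the gene of viperin, at -3.68 and -4.22 (limma adjusted p of 2.26e-04 or lower). Like Ifitm3, its relative Ifitm1 was higher in Th17 cells, by 1.43 in deficient and 1.79 in sufficient cells. The others that rose in both were Nfkb1, the inhibitors Socs3, Ptpn2 and Ptpn6, and the DNA sensor Aim2 of the HIN-200 family, whose relative Pyhin1 fell.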

How the data were processed

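Poly(A) RNA of 16 libraries, 4 in each of 4 groups taken from the labels, was analysed from 1 deposited table. Per the submitters' processing notes, the authors used Trim Galore 0.4.4, STAR 2.6, featureCounts, edgeR and DESeq2 with mouse build NCBIM37, and no settings are given. Per the file headers the authors give, for 8552 named genes, a mean normalized signal, a log2 fold change, its standard error and an adjusted p-value. The headers do not name the comparison, which is Th17 deficient over Th17 sufficient cells as the join shows. The mean is not limited to that comparison. The 16 deposited library columns hold digits of normalized counts without decimal points, and their rows are not in the order of the names. The unit was thus another than the planned design assumed, and the planned limma test was run on the restored values.

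Of 278604 nonzero values, 99.993% were whole multiples of 1 step per library. Powers of 10 were chosen so that the libraries within each group lay close together, and for named rows also by the authors' mean. That mean was taken to cover 24 libraries, 8 of them not analysed here. In 4745 joined rows set by library agreement, the highest ratio of the sum over the analysed libraries to that mean was 23.95. Powers were raised for 8.71% of values. Symbols were joined by refitting the authors' fold change from each row's reads, with the dispersion taken from their standard error. The right row had to match within 1e-06, with the next row at least 20 times farther. In all 7950 names (93%) were joined, 369 of them, Pyhin1 among these, after 1 value was moved to its next-best power. Of 1000 decoys 5 were joined at first powers and 3 at next-best powers. Rows with a posterior of at least 0.95 counted as settled, 13624 in all (76.3%), and the 6 genes were kept whatever their posterior. For joined names the posterior covered the powers of the IL-7 libraries only.

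Levels plus 1 on the log2 scale were tested with limma 3.58.1 in R 4.3.3 (trend, 4 groups in 1 fit) over 12748 settled rows with a mean of at least 10, 6044 of them named, with Benjamini-Hochberg adjustment and a threshold of 0.05. Python 3.11.15, numpy 2.4.6, scipy 1.17.1, pandas 2.3.3, numba 0.67.0 and matplotlib 3.10.9 were used for restoring and plots. Fold changes are on the log2(value + 1) scale. Libraries of 1 number deviated together from their group means between IL-7 deficient and IL-7 sufficient cells (r = 0.33, 0.11, 0.36 and 0.46 for the 4 numbers), so the numbers counted as pairs there, a pairing that comes from the data and not from the labels.

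The restoring and the test were tested on simulated data with known answers. The restoring at first missed its criterion, exact values in nearly all settled rows. The criterion was then narrowed, after that failure, to rows with a mean of at least 10, which it passed, and settled rows with a lower mean were mostly not restored exactly. The simulated reads were drawn around restored values, so these shares do not measure errors made in the real restoring.

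The 6 genes, the wider lists and the tests were chosen with earlier results of these data known. Of the wider list, genes were named where they passed, at most the 6 largest per comparison, and genes alike in pattern were the 5 with the highest r. Other rises in polarization were named after their values were seen. A member of the wider interferon list is not reported by name or drawn here, but stays in the counts and medians of that list.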

Additional observations from a re-analysis of the deposited data

Results flagged for a closer look

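In 24 sets of 4 libraries, 1 for each gene and group, the highest or lowest library stood apart from the rest by Dixon's criterion (its gap to the next one, as a share of the range) in 6 sets, and chance marks about 1 in 20 such groups. In 5 of them the library was BASAL960, with 4760 for Rtp4, 2138 for Ifit1, 3211 for Xaf1, 1942 for Oas3 and 7914 for Pyhin1. The same library was marked each time, so these are not 5 separate observations. The sixth was Ifitm3 in the Th17 deficient library D3TAM960, at 161.9 normalized counts, against 49.2 to 68.3 in the other 3.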

How the results depend on the processing

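Over 198 settings per comparison and gene, counted together (192 for the stage difference), a gene kept its direction and its side of the threshold in 186 for IL-7 deletion, 170 for Th17 deletion, 192 for polarization in deficient and 194 in sufficient cells, and 172 for the stage difference. In the IL-7 deletion comparison, 1 gene passed with all libraries, 0 to 2 with 1 library left out, and 0 without the 4 libraries of BASAL957's or BASAL959's number. It was 3 with the replicate block, 3 with array weights, 2 with the replicate block and without BASAL960 (chosen after seeing the data), 0 with only the 2 groups compared and 0 with limma voom. In the Th17 deletion comparison 4 genes passed and 2 with limma voom, where Xaf1 (adjusted p = 0.165) and Pyhin1 (0.294) did not. Pyhin1 also missed the threshold with only the 2 groups compared (0.142), quantile normalization (0.390), all rows, settled or not (0.06), and the next most probable powers of 10 (0.195), and without the 4 libraries of BASAL955's, BASAL957's or BASAL960's number (up to 0.198). Ifit1 passed there with array weights (0.0155), with only the 2 groups compared (0.0220), without the 4 libraries of BASAL960's number (0.0237) and with the replicate block (0.0411, and 9.86e-04 also without BASAL960). The numbers counted as pairs only in the IL-7 deletion comparison. In the other comparisons r was between 0.03 and 0.19 and not high for every number, although the same number was closest for 3 or 4 of 4 libraries, a hint from the data, and outside that comparison the block changed no other call of the 6 genes. For the stage difference 0 genes passed, 0 to 1 with 1 library or 1 number left out, 2 with array weights and 2 with the replicate block and without BASAL960. In polarization of deficient cells limma voom did not call Oas3 (0.0661) or Ifitm3 (0.0546). The next powers ended the call of Oas3 (0.163), through a value of BASAL960 that the authors' mean does not allow. Leaving out the 4 libraries of BASAL957's or BASAL959's number ended the call of Ifitm3 (0.0547 and 0.0589).

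In polarization of sufficient cells Oas3 ranged between -0.64 and 0.30 with 1 library or number left out (0.30 without BASAL960, 0.18 without all libraries of its number), and was 0.01 with array weights and 0.21 with the replicate block and without BASAL960. For the stage difference, Ifit1 ranged between -1.07 and 0.29 with 1 library or 1 number left out, and stood at 0.19 with a pseudocount of 5, 0.36 with quantile normalization and 0.66 with the next most probable powers of 10. Pyhin1 stood at 0.02 with quantile normalization and 0.37 with the next powers, and Ifitm3 at 0.36 with the next powers. The cause of these changes was not tested. Dropping the filter on the mean brings in many rows that were not restored exactly, and it changed no count of genes called. Th17 levels of Rtp4 rest on at most 7 reads, and the 95% interval of its Th17 difference was -2.06 to 1.05.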
